A study of Mus musculus with 6 samples.

Results

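Type I interferon response genes are the genes that a cell switches on after interferon alpha or beta binds the receptor on its surface. The 37 members described here were taken by gene symbol from a list of genes known to be induced by interferon. The rule for taking them used no measured value, but the list was chosen with earlier results of these data known. All 37 were found in both deposited tables, of which the count table held 24424 genes and the normalized one 23393, and all 37 had enough reads to be tested, among 14548 and 12149 genes tested. RNA had been sequenced from regulatory T cells, the Foxp3+ T cells that restrain immune responses, sorted from spleen and peripheral lymph nodes of mice. The count table held 3 groups of 2 libraries. KO EAE libraries carried the strain label Bcl11bF/WT Foxp3YFP-Cre +/- and were taken at EAE (by common usage experimental autoimmune encephalomyelitis, an autoimmune inflammation of brain and spinal cord). KO libraries carried the same strain label and were taken at steady state. WT libraries carried the strain label Bcl11bF/F, with no Cre named, and were taken at steady state. In this system Cre is driven by Foxp3, so that recombination takes place in cells that have expressed it. The strain label of the KO groups names 1 floxed and 1 wild-type allele of Bcl11b, a transcription factor of T cells, although the genotype label says KO, and an effect of Cre itself cannot be told apart from that of Bcl11b. No WT library at EAE was analysed here, nothing in the labels says that replicates came from separate animals, and p-values therefore measure only the spread between these libraries.

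The type I interferon pathway runs in a relay. Sensors of viral RNA and DNA lead to secretion of interferon alpha and beta, their receptor Ifnar1 with Ifnar2 activates the kinases Jak1 and Tyk2, and these activate Stat2, which joins Irf9 in the complex ISGF3. ISGF3 binds a DNA element, the interferon-stimulated response element (ISRE), in front of its target genes, and most members described here are such targets, including Irf7, Irf9 and Stat2 themselves. In T cells the same genes have a basal level that follows the interferon in their surroundings.

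Promoters were searched for this element. RefSeq windows (GRCm38.p6, 250 bases before to 50 after the start) were given for 27 of the 37 members. Only the 250 bases before the start were searched, in members and in all genes. An ISRE core was searched as GAAA, any 2 bases and GAAA again, on either strand, with overlapping matches counted. It stood in the searched bases of 10 of these 27 members (37%), namely Stat2, Isg15, Oas1a, Oas3, Ifit1, Ifit3, Slfn5, Rsad2, Bst2 and Trim30a, and in those of 3.46% of the 27025 genes with a window. The element of STAT dimers, TTC, any 3 bases and GAA, stood in 5 of 27 members (18.5%) and in 8.13% of genes. A match is a description of letters and not a site shown to be bound. The 150 bases before the start are printed for 4 members with a core, each from another role (Isg15 itself, the oligoadenylate synthetases, the translation blockers and the restriction factors), and for Oasl1 as a member whose searched bases held none. They run 5′ to 3′ on the strand of the gene, and capitals mark matches to the core on either strand.
Isg15 (chr4:156200819-156200968, minus strand): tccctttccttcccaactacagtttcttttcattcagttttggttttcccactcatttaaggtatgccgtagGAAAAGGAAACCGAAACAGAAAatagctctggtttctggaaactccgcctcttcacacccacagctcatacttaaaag
Oas1a (chr5:120907526-120907675, minus strand): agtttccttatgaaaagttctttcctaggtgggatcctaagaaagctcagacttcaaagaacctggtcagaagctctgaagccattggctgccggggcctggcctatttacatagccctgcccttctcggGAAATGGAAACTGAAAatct
Ifit3 (chr19:34583379-34583528, plus strand): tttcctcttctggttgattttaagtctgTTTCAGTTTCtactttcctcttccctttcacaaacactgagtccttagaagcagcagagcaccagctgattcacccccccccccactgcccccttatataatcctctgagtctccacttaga
Rsad2 (chr12:26456453-26456602, minus strand): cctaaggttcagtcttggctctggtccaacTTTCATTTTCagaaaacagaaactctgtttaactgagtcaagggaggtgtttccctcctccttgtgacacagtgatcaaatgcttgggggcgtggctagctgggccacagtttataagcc
Oasl1 (chr5:114923090-114923239, plus strand): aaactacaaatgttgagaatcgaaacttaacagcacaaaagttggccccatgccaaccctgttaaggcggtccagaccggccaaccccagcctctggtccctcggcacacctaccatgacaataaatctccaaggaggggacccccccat
Isg15 held 3 overlapping matches and Oas1a 2 in a run of GAAA repeats on the printed strand, while Ifit3 (2, of which 1 lies whole in the printed bases) and Rsad2 (1) held theirs on the other strand, read as TTTC.

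The members lay on 14 chromosomes, and 15 of them formed 6 groups of neighbours less than 200000 bases apart (GENCODE M21, mm10). Ifit2, Ifit3 and Ifit1 stood within 99316 bases of chromosome 19, Oas2, Oas3 and Oas1a within 177189 bases of chromosome 5, and Parp14, Dtx3l and Parp9 within 139732 bases of chromosome 16. The other groups were Oasl2 with Oasl1, Mx1 with Mx2, and Rsad2 with Cmpk2. Exons of 13 members overlapped another gene, 9 of them on the opposite strand. Since strand use in counting is not stated, reads of such partners (Parp9 and Dtx3l, for example) cannot be told apart. Ifit3, Oas1a, Trim30a, Ifit1 and Ifi27l2a have near-identical or closely related copies (Ifit3b, Oas1g, Trim30d, Ifit1bl1 and other Ifi27 genes), so their own levels are uncertain.

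The 6 libraries of the count table held 14663542 to 16904312 reads. Levels are CPM, reads of a gene scaled to a common library size after TMM scaling, with 3 reads, at most 0.205 CPM, taken as the floor of a library. Bcl11b itself was at 278 to 404 CPM in the KO EAE libraries and at 370 and 371 CPM in the KO libraries, against 420 and 425 CPM in the WT libraries, but a gene count covers exons outside any deleted part and the wild-type allele too, so it does not check the deletion. Foxp3 was at 149 and 163 CPM in KO EAE, 155 and 165 CPM in KO and 206 and 211 CPM in WT, and the 7 regulatory T cell markers listed were all called lower in KO than in WT. The 20 myeloid markers listed summed to 1893 to 2326 CPM in KO EAE and 2187 to 2704 CPM in KO, against 342 to 386 CPM in WT, and 17 of the 20 were called higher in KO than in WT. Of all genes tested in the count table, 9.41% were called higher and 3.46% lower in KO than in WT. The normalized table, described further on, differed in part of these checks. There Bcl11b was at 6746 and 5211 in KO, against 10518 and 11371 in WT (limma log2 change -0.88, adjusted p = 0.0650; -0.80 in the authors' deposited table, adjusted p = 7.91e-08), while Foxp3 had a limma log2 change of -0.07 (adjusted p = 0.856). Of the same lists, 1 of 7 regulatory T cell markers was called lower there by limma and 1 of 20 myeloid markers higher. Of all genes tested there, limma called 0.0412% lower and 0.14% higher. The median log2 change of the regulatory T cell markers was -0.65 there and -0.69 in the count table. That of the myeloid markers was 1.30 there and 3.31 in the count table. The numbers called come from different tests on different sets of libraries, so they cannot be set side by side. In bulk samples, fewer cells of a type and less RNA per cell cannot be told apart.

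The interferon of the pathway was hardly read. All 18 genes listed for interferon alpha, beta and the other type I ligands stayed below the filters on low values, and together they came to 0.96 and 1.54 CPM in KO EAE, 0.85 and 1.02 CPM in KO, and 0.88 and 1.53 CPM in WT. The receptor was read. Ifnar1 was at 235 and 217 CPM in KO EAE and 247 and 241 CPM in KO, against 306 and 297 CPM in WT, and Ifnar2 was at 122 and 121 CPM in KO EAE and 139 and 134 CPM in KO, against 133 and 130 CPM in WT. The difference of Ifnar1 between KO EAE and WT passed the test (log2 change -0.42 ± 0.08 (SE), adjusted p = 0.0255 by edgeR, whose quasi-likelihood p-values were adjusted after Benjamini and Hochberg over all genes tested), and the one between KO and WT did not (-0.31 ± 0.08, adjusted p = 0.0554).

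The widest differences of the members in the count table were between replicates of a group. WT replicate 1 was above WT replicate 2 for all 37 members, by a median of 2.36-fold, 1.29-fold for Irf9 and 12.7-fold for Ifi44 at the ends. KO EAE replicate 2 was above KO EAE replicate 1 for 36 members, by a median of 1.55-fold and at most 3.15-fold for Ifit3, with Ifi44 the exception at 0.928-fold. The KO replicates lay close together, with a median of 1.03-fold for replicate 2 over replicate 1 and a range of 0.769-fold for Mx1 to 1.32-fold for Oas2. Past 1.5-fold, WT replicate 1 exceeded WT replicate 2 for 33 of 37 members, where 5.42% of the 14548 genes tested did so, and KO EAE replicate 2 exceeded replicate 1 for 21 of 37, where 15% of genes did so. No member passed 1.5-fold between KO replicates, where 6.19% of genes did with replicate 2 higher and 6.65% with replicate 1 higher. WT replicate 1 was the highest of the 6 libraries for 29 members, KO EAE replicate 2 for 7 and KO EAE replicate 1 for 1, and WT replicate 2 was the lowest for 28.

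**Figure D1:**
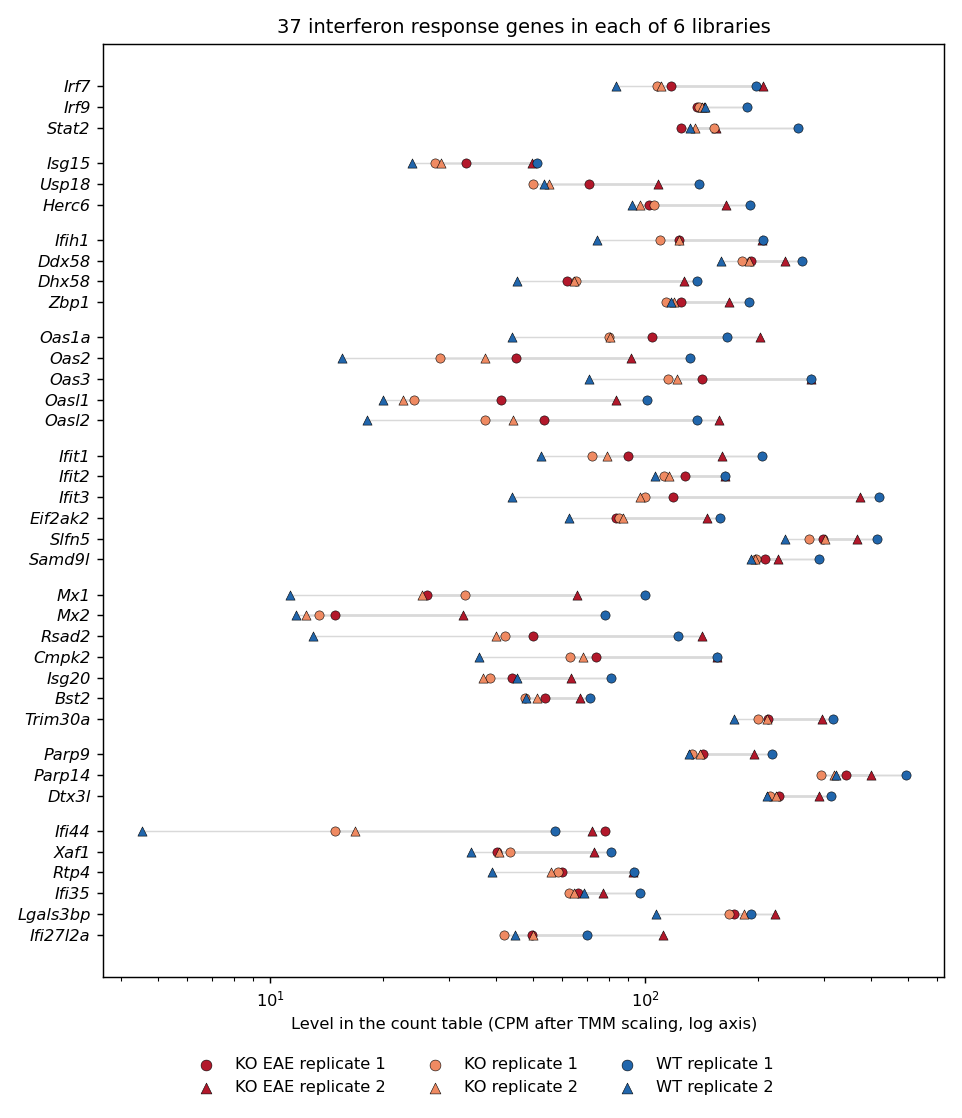
Level of each of the 37 members (rows, grouped by role) in each of the 6 libraries of the count table, in CPM after TMM scaling on a log axis. Circles are replicates 1 and triangles replicates 2. The blue circles (WT replicate 1) and dark red triangles (KO EAE replicate 2) lie at the right of nearly every row. The blue triangles (WT replicate 2) lie furthest left in 28 of the 37 rows.

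The regulators of the response differed in how far they followed this order. Irf7, the transcription factor that amplifies interferon production, was at 117 and 206 CPM in KO EAE replicates 1 and 2 and 107 and 110 CPM in KO, against 197 and 83.3 CPM in WT replicates 1 and 2. Its KO EAE and KO values therefore all lay between those of the WT libraries, apart from KO EAE replicate 2, which was above both. Irf9, the DNA-binding part of ISGF3, was at 137 and 143 CPM in KO EAE and 139 and 142 CPM in KO, against 187 and 144 CPM in WT, so that WT replicate 1 stood alone and the other 5 libraries lay between 137 and 144 CPM. Stat2 was at 124 and 154 CPM in KO EAE and 152 and 136 CPM in KO, against 255 and 132 CPM in WT, again with WT replicate 1 apart and the groups overlapping.

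Isg15 encodes a ubiquitin-like protein that is joined to other proteins, Herc6 its mouse ligase, and Usp18 the protease that removes it and also dampens signalling at Ifnar2. Isg15 was at 33.1 and 49.9 CPM in KO EAE and 27.5 and 28.5 CPM in KO, against 51.4 and 23.8 CPM in WT. Usp18 was at 70.8 and 108 CPM in KO EAE and 50.1 and 55.3 CPM in KO, against 139 and 53.7 CPM in WT. Herc6, the member of this group with the highest CPM, was at 102 and 164 CPM in KO EAE and 106 and 96.8 CPM in KO, against 189 and 91.9 CPM in WT. All 3 had both KO libraries close to WT replicate 2, and KO EAE replicate 2 between the WT libraries.

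Among the sensors, Ddx58 (RIG-I) and Ifih1 detect viral RNA, Dhx58 regulates both, and Zbp1 binds nucleic acid in an unusual left-handed form and can start cell death. Ddx58 was at 191 and 236 CPM in KO EAE and 181 and 188 CPM in KO, against 261 and 159 CPM in WT. Its gap between the WT libraries, 1.64-fold, was close to that of Zbp1 (1.62-fold), while those of Ifih1 (2.79-fold) and Dhx58 (3.02-fold) were wider. The oligoadenylate synthetases make the messenger that activates the nuclease RNase L, and Oasl1 and Oasl2 are their relatives. Oas3 was at 141 and 276 CPM in KO EAE and 115 and 121 CPM in KO, against 276 and 70.9 CPM in WT. Oasl1 was at 41.2 and 83.5 CPM in KO EAE and 24.2 and 22.6 CPM in KO, against 101 and 19.9 CPM in WT. All 5 genes of this family had WT replicate 2 as their lowest library and a gap between WT libraries of 3.74-fold or more, up to 8.46-fold for Oas2.

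The Ifit proteins bind foreign RNA and block its translation, Eif2ak2 (PKR) halts translation in cells that hold viral RNA, and Slfn5 and Samd9l are interferon-induced regulators of cell growth and translation. Ifit3 was at 119 and 373 CPM in KO EAE and 99.6 and 96.9 CPM in KO, against 421 and 44.1 CPM in WT. Its neighbour Ifit2 covered a narrower range, at 128 and 163 CPM in KO EAE and 112 and 116 CPM in KO, against 163 and 106 CPM in WT. Slfn5, the highest of the group in CPM, was at 298 and 366 CPM in KO EAE and 274 and 300 CPM in KO, against 414 and 235 CPM in WT. These neighbours thus shared their highest and their lowest library but not the size of the gaps, 9.54-fold for Ifit3 and 1.54-fold for Ifit2 between the WT libraries.

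The members that restrict viruses directly include the GTPases Mx1 and Mx2, Rsad2 (viperin) and its neighbour Cmpk2, which together yield a chain-terminating nucleotide, the exonuclease Isg20 and Bst2 (tetherin), and Trim30a, a ubiquitin ligase, is set beside them. Mx2 was at 14.8 and 32.6 CPM in KO EAE and 13.5 and 12.4 CPM in KO, against 78.0 and 11.7 CPM in WT. Isg20 was at 43.9 and 63.5 CPM in KO EAE and 38.5 and 36.9 CPM in KO, against 81.1 and 45.4 CPM in WT, so that both KO libraries were below both WT libraries. Trim30a, the highest of the group, was at 212 and 295 CPM in KO EAE and 200 and 211 CPM in KO, against 316 and 173 CPM in WT. Between the WT libraries Rsad2 differed by 9.38-fold and Mx1 by 8.83-fold, while Bst2 differed by 1.48-fold. Mx1 is disrupted in many laboratory strains, and the genetic background was not given beyond the alleles.

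Parp9 and Dtx3l form a complex that modifies histones and viral proteins, and Parp14 is an ADP-ribosyltransferase. Parp14, the highest of the members in CPM, was at 342 and 400 CPM in KO EAE and 293 and 318 CPM in KO, against 496 and 323 CPM in WT, with both KO libraries below both WT libraries. Parp9 and Dtx3l had gaps between the WT libraries of 1.66-fold and 1.49-fold. Of the remaining members, Ifi44, a cytoplasmic protein induced on virus infection, was the one whose highest library was KO EAE replicate 1. It was at 77.9 and 72.2 CPM in KO EAE and 14.9 and 16.9 CPM in KO, against 57.4 and 4.53 CPM in WT, so that both KO EAE libraries were above all others. Ifi35, an interferon-induced partner of Nmi, was at 66.0 and 77.2 CPM in KO EAE and 62.4 and 64.6 CPM in KO, against 96.6 and 68.7 CPM in WT. Lgals3bp, a secreted glycoprotein, was at 172 and 221 CPM in KO EAE and 167 and 184 CPM in KO, against 191 and 106 CPM in WT, and was the only member with a higher mean in KO than in WT. Ifi27l2a, a small membrane protein, was at 49.98 and 111 CPM in KO EAE and 42.0 and 50.02 CPM in KO, against 69.9 and 45.0 CPM in WT, with KO EAE replicate 2 standing apart.

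Per kilobase of exon, which allows levels of different genes to be set side by side, the mean over the 6 libraries was highest for Ifi27l2a at 132 CPM per kilobase and Ifit3 at 110, followed by Bst2 at 62.6. It was lowest for Ifi44 at 6.63, Mx2 at 7.52 and Xaf1 at 11.1 CPM per kilobase. The order differed between groups: Ifi44 had a mean of 12.2 CPM per kilobase in KO EAE, above Mx2 at 6.57, and one of 2.59 in KO, where it was the lowest. Ifit3 was at 141 CPM per kilobase in KO EAE, 56.3 in KO and 133 in WT. Genes with low and with high levels were both among those with wide gaps between the WT libraries (Ifi44 at 12.7-fold and Ifit3 at 9.54-fold).

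The gap between the WT libraries was seen in other interferon-stimulated genes too, and was small or absent in the receptor genes and in T cell and myeloid markers. Of 71 further interferon-stimulated genes with at least 60 reads over the 6 libraries, all 71 were higher in WT replicate 1 than in WT replicate 2, with a median of 1.51-fold, and 69 were higher in KO EAE replicate 2 than in KO EAE replicate 1, with a median of 1.31-fold. Of 23 interferon-gamma targets, 22 were higher in WT replicate 1 (median 1.33-fold). The receptor, JAK and STAT list (13 genes) had a median of 1.02-fold between the WT libraries, and the 7 T cell markers of 1.02-fold. The 20 myeloid markers had a median of 0.938-fold between the WT libraries, and between the KO EAE libraries all 20 were higher in replicate 2, by a median of 1.22-fold. The 10 B cell markers were higher in KO EAE replicate 2 by a median of 2.31-fold, summing to 215 CPM there and to 127 CPM in replicate 1, and 6 of 7 NK cell markers were higher too (median 1.52-fold). No listed myeloid or B cell marker was at 0 in all libraries. The 11 markers listed for plasmacytoid dendritic cells, the main makers of interferon alpha, include Bst2, which is also a member. They summed to 388 and 402 CPM in KO EAE and 420 and 488 CPM in KO, against 341 and 312 CPM in WT. Single markers went both ways, with log2 changes in KO against WT from -0.46 to 5.57. Of them edgeR called 3 higher and 0 lower, where it called 9.41% of all genes higher and 3.46% lower. The median between the WT libraries was 1.03-fold. In KO EAE, 8 of the 11, Bst2 among them, were higher in replicate 2 than in replicate 1 (median over the 11 of 1.245-fold). Siglech was at 7.003-fold and Klk1 at 4.75-fold, but on few reads. In KO EAE replicates 1 and 2 Siglech had 6 and 42 reads and Klk1 4 and 19, near the floor of 3 reads in replicate 1. Of the 7 erythroid markers 4 were at 0 in all libraries, and the 3 others were all higher in WT replicate 1 than in WT replicate 2 (median 2.04-fold) and in KO EAE replicate 2 than in replicate 1 (median 1.78-fold), summing to 17.99 and 31.8 CPM in KO EAE replicates 1 and 2, 16.6 and 36.3 CPM in KO, and 3.44 and 2.27 CPM in WT replicates 1 and 2. The part of these cell types in the members' differences between replicates was not tested. The labels used here name no batch, and depth differed by little between the replicates of WT (16512337 and 16501787 reads) and of KO EAE (15704030 and 15525373 reads).

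**Figure D2:**
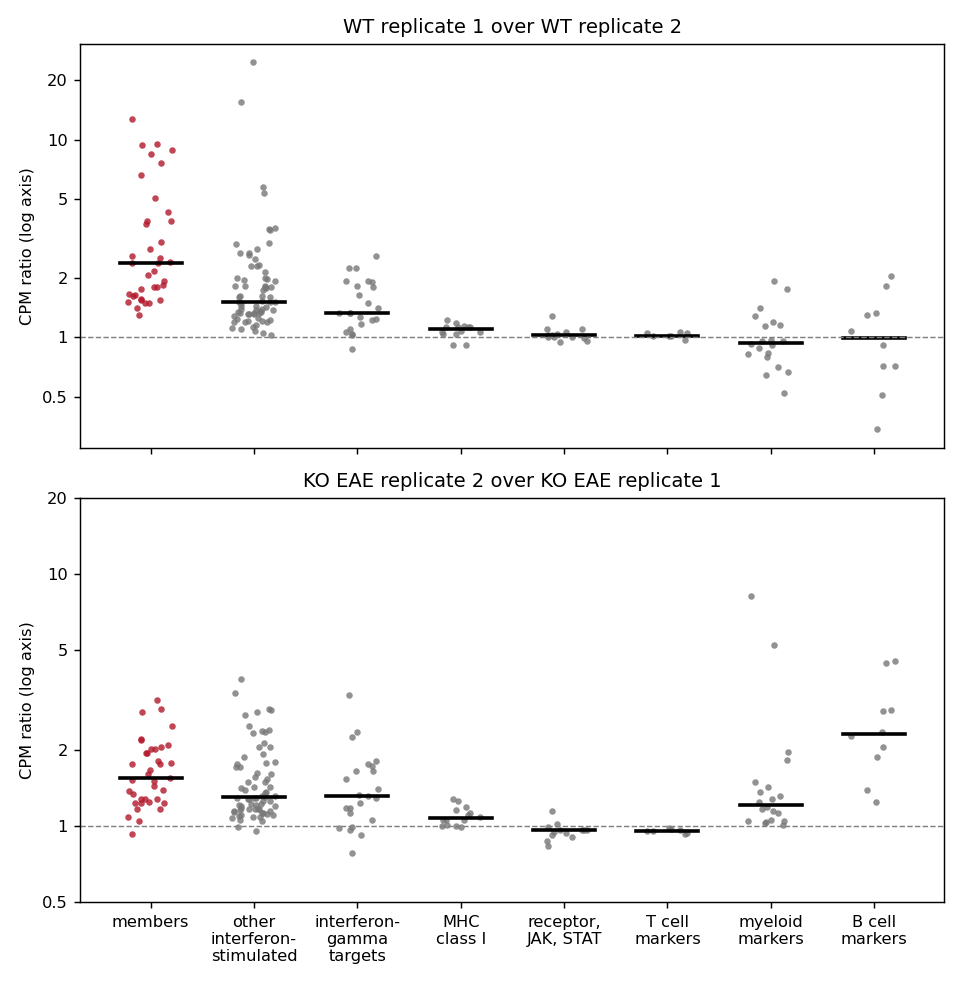
CPM of one replicate over the other, on a log axis, for the 37 members (red) and for 7 further gene lists (grey), in WT (top) and in KO EAE (bottom). Each point is a gene with at least 60 reads over the 6 libraries and the bars are medians, which for the members are 2.36 in WT and 1.55 in KO EAE, and for T cell markers 1.02 and 0.958.

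KO was compared with WT to ask what differs at steady state between these labels, which differ in Cre and in the Bcl11b alleles together. The fitted log2 change was below 0 for 36 of 37 members, with a median of -0.42 where the median over all genes was -0.01, but no member passed the test. edgeR's quasi-likelihood test called 0 members higher, where it called 9.41% of the 14548 genes higher, and 0 members lower, where it called 3.46% lower. At an unadjusted p under 0.05 it found 1 member, where 28.4% of genes were found, and DESeq2 called 0 members, where it called 16.8% of the genes with an adjusted p. The members with the smallest p were Isg20 (-0.75 ± 0.29 (SE), adjusted p = 0.161), Ifi35 (-0.38 ± 0.17, adjusted p = 0.206) and Mx2 (-1.79 ± 0.84, adjusted p = 0.223). Both KO libraries were below both WT libraries for 4 members, Irf9, Isg20, Parp14 and Ifi35, where 32.5% of genes were so placed, and above both for none, where 32.7% were. The members' means were 109 ± 1.75 CPM in KO and 140 ± 80.3 CPM in WT for Irf7, and 98.3 ± 1.92 CPM in KO and 232 ± 266 CPM in WT for Ifit3 (SD, n = 2 each), so that the WT spread exceeded the difference.

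The direction turned on which WT library was kept. Without WT replicate 1, 32 members had a log2 change above 0, with a median of 0.27, and Ifi44 was called higher in KO (1.82 ± 0.19, adjusted p = 0.00597, edgeR), where 4.77% of the genes tested were called higher. Without WT replicate 2, all 37 members were below 0, with a median of -0.88, and 7 were called lower, where 0.965% of genes were called lower. These were Stat2 (-0.82 ± 0.16, adjusted p = 0.0425), Usp18 (-1.40 ± 0.24, adjusted p = 0.0286), Oas2, Oasl1, Mx2 (-2.59 ± 0.42, adjusted p = 0.0237), Isg20 and Ifi44 (-1.86 ± 0.14, adjusted p = 0.00174). Ifi44 was thus called in opposite directions against the WT libraries taken alone. In these fits a lone WT library was taken to vary as the other groups do. Under the 7 other alternatives run on this comparison, the smallest adjusted p of any member lay between 0.0699 (DESeq2) and 0.437.

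**Figure D3:**
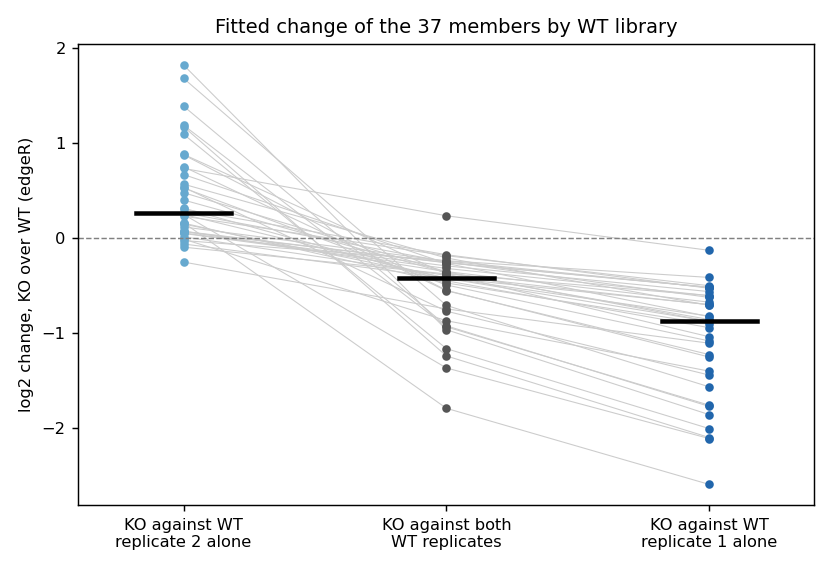
Fitted log2 change of the 37 members, KO over WT, from edgeR against WT replicate 2 alone, both WT replicates and WT replicate 1 alone. Grey lines join the values of a gene and black bars are medians, at 0.27, -0.42 and -0.88.

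KO EAE was compared with KO to ask what disease changes in the same genotype. The log2 change was above 0 for 35 of 37 members, with a median of 0.49 where that of all genes was 0.00, and both KO EAE libraries were above both KO libraries for 26 members, where 17% of the genes tested were so placed. None lay below, where 21.3% of genes did. No member was called by edgeR in either direction, where 0.0137% of genes were called higher and 0% lower, none had an unadjusted p under 0.05, where 9.47% of genes had, and DESeq2 called 0, where it called 1.24% of genes. The smallest p belonged to Ifi44, which averaged 75.0 ± 3.97 CPM in KO EAE and 15.9 ± 1.40 CPM in KO (SD, n = 2 each; 2.24 ± 0.95 (SE), adjusted p = 0.528). In a fit of only these 4 libraries its adjusted p was 0.0743, and under each of the other alternatives run it was 0.313 or more. Ifi27l2a (0.81 ± 0.39, adjusted p = 0.561) and Oasl1 (1.41 ± 0.72, adjusted p = 0.573) followed. The spread that these tests use comes from all 3 groups, of which WT was the widest for Ifi44. Of the regulators, Irf7 had a log2 change of 0.57 ± 0.42, Irf9 of -0.002 ± 0.13 and Stat2 of -0.05 ± 0.29. Without KO EAE replicate 2 the median of the members was 0.11 and 30 of 37 were above 0, and without KO EAE replicate 1 it was 0.80 with all 37 above 0, with 0 members called in both fits.

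KO EAE set against WT differs in both genotype and disease, and the effects of these cannot be told apart. This comparison shares its KO EAE libraries with the one against KO and its WT libraries with that of KO against WT. The members' log2 changes had a median of 0.03, with 21 above 0 and 16 below. edgeR called 0 members higher, where 7.41% of genes were called, and 0 lower, where 1.95% were, with none at an unadjusted p under 0.05, where 26.3% of genes were, and 0 called by DESeq2, where 15.9% were. The smallest p were those of Irf9 (-0.24 ± 0.12 (SE), adjusted p = 0.273), Stat2 (-0.47 ± 0.29, adjusted p = 0.356) and Lgals3bp (0.40 ± 0.27, adjusted p = 0.398). Both KO EAE libraries were above both WT libraries for Ifi44 alone, where 29.9% of genes were, and below both for Irf9 alone, where 30.7% were. With each library left out in turn the median ran between -0.40 and 0.86. Without WT replicate 1 it was 0.86 and Ifi44 was called higher (4.07 ± 0.21, adjusted p = 0.00118), where 3.51% of genes were called higher. Without WT replicate 2 it was -0.40 and Stat2 was called lower (-0.87 ± 0.16, adjusted p = 0.0436), where 0.502% were called lower. Without KO EAE replicate 1, Ifi27l2a was called higher (0.94 ± 0.25, adjusted p = 0.0451), where 13.6% were, and without KO EAE replicate 2 the median was -0.29 with no call. With WT replicate 1 and KO EAE replicate 2 both left out, an alternative chosen after seeing the data, 15 members were called higher, where 6.51% of genes were, among them Ifit3 (1.44 ± 0.13, adjusted p = 0.000115), Oasl2 (1.58 ± 0.19, adjusted p = 0.000604) and Rsad2 (1.96 ± 0.18, adjusted p = 0.000116). The spread in that fit rests on the KO pair, the group in which the members lay closest. Under the alternatives with no call, the smallest adjusted p of any member lay between 0.148 and 0.465.

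The normalized table holds KO and WT libraries only, and its values under the same library names differ from those of the count table, so it is described by itself. Its unit is reads divided by the size factor of the library. Here the replicates of WT lay closer for the regulators, and replicate 2 was the higher one for 31 members, by a median of 1.11-fold, with Bst2 at 0.819-fold and Mx2 at 2.86-fold. Past 1.5-fold, 7 members were higher in WT replicate 2, where 16% of the 12149 genes tested were, and for 5 members the value of KO replicate 1 exceeded that of KO replicate 2, as for 9.66% of genes.

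Irf7 had values of 3270 and 3662 in KO, against 4481 and 4585 in WT. Irf9 had 4939 and 5287 in KO, against 6594 and 6691 in WT. Stat2 had 2887 and 3101 in KO, against 4205 and 4354 in WT. All 3 regulators thus had both KO libraries below both WT libraries, with means 0.765-fold (Irf7), 0.770-fold (Irf9) and 0.70-fold (Stat2) those of WT. Usp18 had 2865 and 2177 in KO, against 4089 and 3757 in WT. Parp14 had 2749 and 2415 in KO, against 3698 and 3802 in WT. These genes too had both KO libraries below both WT libraries, while the next pair was placed the other way. Cmpk2 had 1847 and 1129 in KO, against 745 and 1111 in WT. Ifi27l2a had 8221 and 6765 in KO, against 6056 and 6618 in WT. Both KO libraries were below both WT libraries for 12 members, where 22.4% of genes were, and above both for 4 (Ifih1, Cmpk2, Rtp4 and Ifi27l2a), where 23.3% were. The 12 were Irf7, Irf9, Stat2, Usp18, Herc6, Zbp1, Oas2, Oasl1, Slfn5, Isg20, Parp14 and Ifi35, which include the 4 so placed in the count table.

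**Figure D4:**
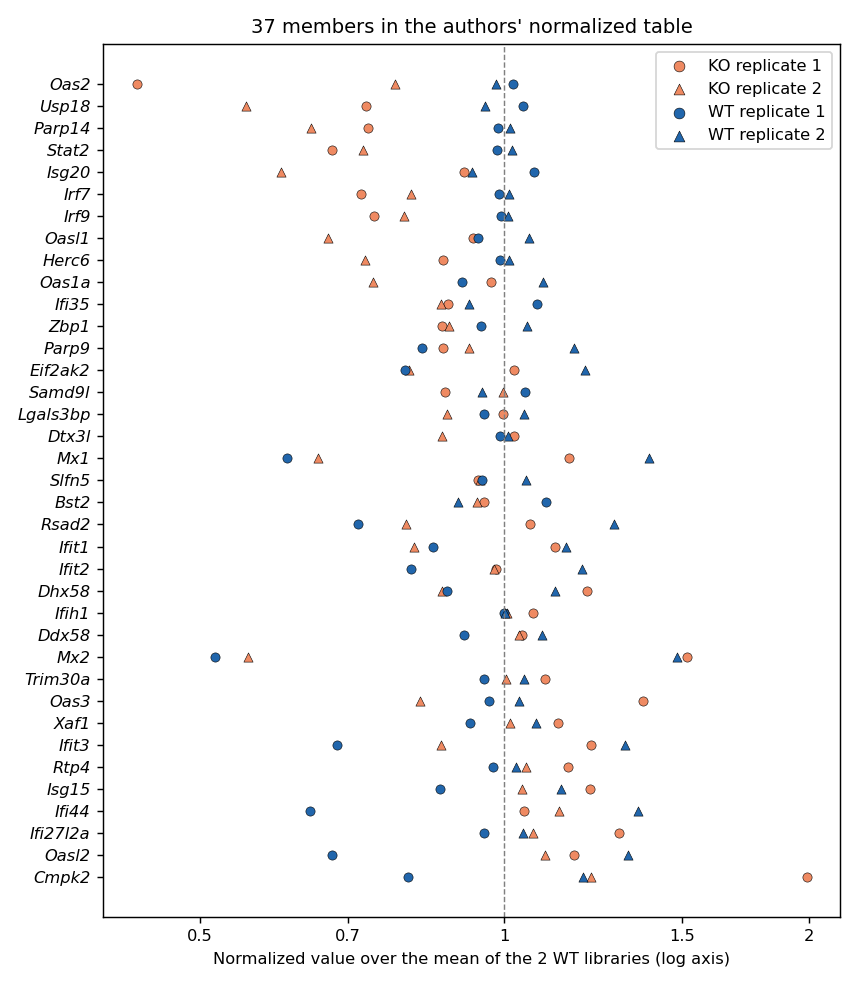
Normalized value of each of the 37 members over the mean of the 2 WT libraries, on a log axis, for KO (orange) and WT (blue), with circles for replicates 1 and triangles for replicates 2. Rows run by the fitted log2 change from Oas2 (-0.78) at the top to Cmpk2 (0.67) at the bottom, and Stat2, Irf7, Irf9, Usp18 and Parp14 have both KO points left of both WT points.

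The members' median log2 change in this table was -0.08, with 23 of 37 below 0, where the median of all genes was 0.00. limma, on log2(value + 1), called 0 members higher, where 0.14% of genes were called, and 0 lower, where 0.0412% were, and found 6 members at an unadjusted p under 0.05, where 13.1% of genes were found. These were Stat2, Parp14, Usp18, Irf9 and Irf7, with log2 changes below 0, and Cmpk2, with one above 0. The smallest p were those of Stat2 (-0.52 ± 0.12 (SE), adjusted p = 0.160), Parp14 (-0.54 ± 0.13, adjusted p = 0.167) and Usp18 (-0.65 ± 0.16, adjusted p = 0.177), and Irf9 (-0.38 ± 0.11, adjusted p = 0.225) and Irf7 (-0.39 ± 0.12, adjusted p = 0.255) came next. On whole reads recovered from the values edgeR called 0 members as well, where 0.0653% of genes were called higher and 0.0326% lower. The authors' deposited table of KO against WT has 4 members with an adjusted p under 0.05, all lower, where 1.64% of its 10396 genes with an adjusted p were lower and 1.71% higher. In the authors' deposited table Usp18 had a log2 change of -0.56 (adjusted p = 0.00825), Stat2 of -0.47 (adjusted p = 0.00965), Parp14 of -0.48 (adjusted p = 0.0133) and Irf9 of -0.35 (adjusted p = 0.0485), and Irf7 missed the threshold (-0.35, adjusted p = 0.0988). In the normalized table, the median over the 37 members was -0.27 without WT replicate 1 and 0.11 without WT replicate 2.

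Other genes of the pathway were read beside the members, with edgeR in the count table. Of all genes tested there, 9.41% were called higher and 3.46% lower in KO than in WT. Of the 13 receptor, JAK and STAT genes, 1 was called higher and 2 lower in KO than in WT: Ptpn11, a phosphatase of receptor signalling (0.43 ± 0.08 (SE), adjusted p = 0.0214), and the inhibitors Socs3 (-0.39 ± 0.08, adjusted p = 0.0277) and Socs1 (-0.33 ± 0.08, adjusted p = 0.0447). Of 14 genes that lead to interferon production, 3 were called higher and 0 lower. Tlr9, a sensor of DNA in endosomes, was at 25.3 and 24.5 CPM in KO, against 1.5 and 1.16 CPM in WT (4.22 ± 0.36, adjusted p = 0.000848). Irf8, which B cells and myeloid cells use, and Mavs, the adaptor of Ddx58 and Ifih1, had log2 changes of 1.10 ± 0.17 (adjusted p = 0.00947) and 0.48 ± 0.09 (adjusted p = 0.0184). The myeloid markers given above moved with Tlr9 and Irf8, and their part in these calls was not tested. In the normalized table limma called 0 genes of either list, where 0.14% of all genes were called higher and 0.0412% lower. Irf8 had a log2 change of -0.09 ± 0.18, Mavs of 0.15 ± 0.16 and Ptpn11 of 0.10 ± 0.15 there, while Socs3 had one of -0.81 ± 0.12 (adjusted p = 0.0592).

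The counts of KO against WT in the next lists stand beside 9.41% of all genes called higher and 3.46% called lower. Of the 71 further interferon-stimulated genes tested, 3 were called higher and 1 lower in KO than in WT, with a median of -0.24. Lap3, an aminopeptidase (0.93 ± 0.10 (SE), adjusted p = 0.00217), Ifitm2, which hinders virus entry (2.14 ± 0.28, adjusted p = 0.00519), and AI607873, matched by a synonym (4.35 ± 0.62, adjusted p = 0.00715), were the higher ones, and Gbp3, a guanylate-binding protein, was lower (-0.85 ± 0.17, adjusted p = 0.0251). Interferon gamma shares part of the target genes, and its own gene, Ifng, was at 66.4 and 67.2 CPM in KO EAE and 48.0 and 66.3 CPM in KO, against 25.6 and 32.3 CPM in WT. Ifng was called higher in KO (0.98 ± 0.18, adjusted p = 0.0192) and in KO EAE (1.21 ± 0.18, adjusted p = 0.0112) than in WT. Of 23 interferon-gamma targets, 3 were called higher and 3 lower in KO than in WT, with a median of -0.44. The higher ones were the chemokine Cxcl9 (4.32 ± 0.40, adjusted p = 0.00113), Ciita (3.15 ± 0.47, adjusted p = 0.00879) and Batf2 (3.12 ± 0.70, adjusted p = 0.0363), and the lower ones Gbp2b (-1.92 ± 0.22, adjusted p = 0.00288), the transcription factor Irf1 (-0.39 ± 0.07, adjusted p = 0.0174) and Socs1. Ciita, which drives MHC class II genes in antigen-presenting cells, was at 18.1 and 29.9 CPM in KO, against 2.5 and 2.88 CPM in WT, beside the rise of the myeloid markers, whose part was not tested. Of 14 genes of MHC class I presentation, 1 was called lower in KO than in WT, H2-Q4 (-0.50 ± 0.08, adjusted p = 0.0104), and 0 higher. In KO EAE against KO no gene of these lists was called, where 0.0137% of all genes were called higher and 0% lower. In the normalized table limma called 0 genes of these lists in KO against WT, where 0.14% of all genes were called higher and 0.0412% lower. Ciita was at -0.82 ± 0.52 there, the other direction, Cxcl9 at 3.66 ± 1.22 and Gbp3 at -0.61 ± 0.14.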

How the data were processed

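The authors deposited 3 tables, made with HISAT2, HTSeq and DESeq2 on mm10 per the submitters' processing notes. Versions, annotation, counting mode and strand setting are not given in the sources that were used. The count table holds whole-number read counts per gene as deposited by the authors, not normalized. The normalized table holds a signal per gene that the authors divided by size factors, per the file headers and the values, and every value was a whole multiple of 1 read (100%, tolerance 0.02 reads). The authors' deposited comparison of KO with WT gives log2 fold changes and their standard errors, p-values before and after adjustment, a mean signal and a test score. Rows that name no gene were left out (25 of 24449 and 27 of 23420, at most 0.284% of a library).

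The test of counts was edgeR 4.0.16 under R 4.3.3 (genes kept by filterByExpr at a minimum count of 10 and total of 15, TMM, glmQLFit and glmQLFTest, all 6 libraries, 1 coefficient per group, 3 residual degrees of freedom). Normalized values were tested with limma 3.58.1 on log2(value + 1) with a mean of at least 10. Fold changes on that scale understate the change of low genes. Benjamini-Hochberg adjustment ran over all genes tested, with a threshold of 0.05. The SE of an edgeR log2 change was taken as its size over the root of F. Alternatives were DESeq2 1.42.0 on the counts, edgeR on recovered reads, other scalings and filters, a replicate block, and leaving out libraries. Replicates differed by more than sampling noise (chi-square per degree of freedom 18.8 to 36.5), so each library counted as 1. Floors cover counting error only. The tests were run on simulated counts with known changes first. The members, lists and tests were chosen with earlier results of these data known. By rule, every library's value was given for Irf7, Irf9, Stat2, the 3 members with the smallest p in each comparison and the member with the highest mean of each role, and, outside the members, Bcl11b, Foxp3, Ifnar1, Ifnar2 and Ifng. Up to 4 genes with the smallest p of each further list were named with their log2 change. Batf2, Isg15, Ifit2, Ifit3, Cmpk2, Ifi27l2a in the normalized table, and the genes named in the closing observations were added after their values were seen.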

Additional observations from a re-analysis of the deposited data

How the results depend on the processing

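With each library left out in turn, the number of members called ran between 0 and 7 for KO against WT, was 0 throughout for KO EAE against KO, and ran between 0 and 1 for KO EAE against WT. It was 15 for KO EAE against WT with WT replicate 1 and KO EAE replicate 2 both left out. The members' median log2 change ran between -0.88 and 0.27 for KO against WT, between 0.11 and 0.80 for KO EAE against KO, between -0.40 and 0.86 for KO EAE against WT, and between -0.27 and 0.11 for KO against WT in the normalized table. In KO against WT the log2 change ran over the same left-out libraries between -0.86 and 0.40 for Irf7, -0.82 and 0.15 for Stat2, and -2.59 and 0.16 for Mx2, the upper value being that without WT replicate 1. In KO EAE against KO it ran between -0.033 and 0.033 for Irf9, which was 0.011 with only the 4 libraries compared, and between -0.22 and 0.10 for Stat2 (without KO EAE replicate 2 and without KO EAE replicate 1). In KO EAE against WT it ran between -0.28 and 0.97 for Irf7 (without WT replicate 2 and without WT replicate 1) and between -0.87 and 0.10 for Stat2. The cause was not tested. DESeq2, RLE scaling, no filter, only the libraries compared, a pseudocount of 5 and recovered reads called 0 members in each comparison they were run on. Over all genes, the call counts of KO EAE against KO were 2 with edgeR and 167 with DESeq2, and those of KO against WT 1873 with all 6 libraries and 3121 with only the 4 compared. Same-numbered replicates did not deviate together in a way that pairs them (r = 0.05 for KO with WT, 0.21 for KO EAE with KO, -0.25 for KO EAE with WT, and 0.00 in the normalized table). With a replicate block the members' medians were -0.39, 0.50, 0.11 and -0.08, and 0 members were called. With crossed numbers as the block, chosen after seeing the data, 785 genes and 0 members were called in KO EAE against WT. The 2 libraries of a group limit every statement here, and depth does not, since each member had reads well above the floor in all libraries.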

Other observations

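The order of libraries seen for the members was also searched for over all genes, with thresholds chosen after seeing the data: WT replicate 1 over WT replicate 2 above 2-fold, KO EAE replicate 2 over KO EAE replicate 1 above 1.5-fold, KO replicates within 1.2-fold, and a mean of at least 5 CPM. Of 10962 genes with that mean, 55 had the pattern, of which 18 were members, 17 stood in the other interferon lists and 20 in no list. Among the listed ones Oas1g, a close copy of Oas1a, was at 62.6 and 146 CPM in KO EAE and 49.8 and 47.8 CPM in KO, against 107 and 4.35 CPM in WT. Ifit3b, a close copy of Ifit3, was at 87.4 and 335 CPM in KO EAE and 74.0 and 70.6 CPM in KO, against 371 and 23.8 CPM in WT. Tlr3, a sensor of viral RNA, was at 6.10 and 14.1 CPM in KO EAE and 8.29 and 8.80 CPM in KO, against 7.44 and 0.86 CPM in WT.

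The genes in no list included Siglec1, a receptor of macrophages, at 81.1 and 175 CPM in KO EAE and 79.4 and 77.5 CPM in KO, against 6.76 and 1.96 CPM in WT. They also included complement genes, with C2 at 25.5 and 44.5 CPM in KO EAE and 43.8 and 52.1 CPM in KO, against 6.88 and 1.90 CPM in WT, and Cfb at 15.6 and 67.9 CPM in KO EAE and 30.6 and 35.3 CPM in KO, against 8.57 and 3.18 CPM in WT. Ube2l6, the enzyme that hands Isg15 to its ligase, was at 34.4 and 59.7 CPM in KO EAE and 31.7 and 31.8 CPM in KO, against 67.4 and 29.1 CPM in WT. Rpl7, a ribosomal protein gene, had the pattern at a far higher level, 362 and 659 CPM in KO EAE and 148 and 160 CPM in KO, against 961 and 197 CPM in WT. These genes were found by the pattern they show, so their values are a description.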
